A study of Mus musculus with 6 samples.

Results

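In cultures of mouse Müller glia, a small set of mesenchymal cells carried transcripts of Tnfrsf18, Matn4, Esm1 and 5 further genes together. A cell was counted as a member when it had at least 500 detected genes, at most 10% mitochondrial UMIs (unique RNA molecules counted), at least 1 UMI of 3 or more of the 8 genes Tnfrsf18, Scn3b, Esm1, Anxa8, Matn4, Cyyr1, Perp and Ptges, and UMIs of fewer than 3 of the contractile genes Actg2, Des, Cnn1, Ppp1r14a and Pla1a. The rule found 413 of 23258 kept cells. Members were thus chosen by the detection of these 13 transcripts in the same matrices, and every gene was measured in the cells so picked, so comparisons of members with other cells are given as descriptions without a test. The study transfected retinal cultures with RNAs that block or mimic microRNAs and profiled them with the 10x Genomics V2 single-cell system. Retinas had been dissociated in papain and grown in neurobasal medium with serum, N2, L-glutamine and EGF. There were 6 libraries, 1 for each treatment: control RNAs, let-7 antagomiR, which blocks the let-7 family, miR-25 mimic, miR-124 mimic, a double combination of let-7 antagomiR with miR-25 mimic, and a triple combination that adds miR-124 mimic. Each RNA was at 500 nM and was delivered with Lipofectamine 3000. All 6 libraries therefore share the culture, the serum, the EGF and the transfection, while age, strain and genotype of the mice were not stated in the sources used here. Cells were cultured from retinas, so the cell types of a library depend on what the culture kept. With 1 library per treatment, no difference between treatments has a replicate check, and intervals in brackets are exact 95% intervals that cover counting error only.

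Retinal cultures grown from dissociated tissue hold cells of the vessel walls and of the coats of the eye besides glia, and fibroblast-type cells spread in serum. Such cells secrete collagens, fibronectin and proteoglycans and build actin stress fibres, which rest on the genes of smooth muscle and of the serum response. The 8 genes of the rule belong to unlike families. Tnfrsf18 (GITR) is a receptor of the TNF superfamily known from T lymphocytes. Scn3b is an auxiliary beta subunit of voltage-gated sodium channels. Esm1 (endocan) is a secreted proteoglycan known from endothelial cells, and Matn4 is a matrilin, an adaptor protein of the extracellular matrix. Anxa8 is a calcium-dependent phospholipid-binding annexin, Cyyr1 a small membrane protein, Ptges the inducible synthase of prostaglandin E2, and Perp a membrane protein of desmosomes that is also a target of p53, the transcription factor that answers DNA damage and other stress.

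The genes lie on 7 chromosomes of GRCm38. In the GENCODE vM21 annotation Tnfrsf18 spans chr4:156026164-156028895, Esm1 chr13:113209659-113218098, Scn3b chr9:40269217-40291618 and Perp chr10:18845020-18857073, all on the plus strand. Matn4 spans chr2:164389393-164405160 and Ptges chr2:30889471-30929863, both on the minus strand. Esm1 overlaps Gzmk and Matn4 overlaps Rbpjl on the other strand, so UMIs of each pair can be told apart only if the counting used strand, which was not stated in the sources used here. Cyyr1 overlaps Gm2541 and Ptges overlaps Gm13400 on the same strand, where strand cannot tell them apart.

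The libraries held 11804176 to 23124374 UMIs in 3014 to 5269 barcodes. The double combination was read in part, 3014 of its 5141 listed barcodes. Any 2 libraries shared 9 to 33 cell barcodes, and 9 of the 413 member barcodes occurred in another library, none of them among its members. Genes with miRNA sites were read in Müller-like cells as a check on the labels. In the library labelled miR-124, whose label names neither RNA, genes with a let-7 site had a median log2 ratio to control that was 0.12 above that of genes without one, and genes with a miR-25 site stood at 0.07. The let-7 antagomiR library had 0.03 for let-7 sites, and so had the library labelled triple combination. For miR-25 sites the library labelled triple stood at 0.05, against -0.11 in the miR-25 mimic library and -0.13 in the double combination against its antagomiR. In Müller-like cells the let-7 value in the first library and the miR-25 value in the second do not match the RNAs of their labels. In member cells the miR-25 value was -0.07 labelled triple, beside -0.05 with miR-25 mimic, and the let-7 value -0.04 labelled miR-124. In the other mesenchymal-like cells described below, these values were -0.04, -0.04 and -0.03 in the same order. The let-7 value labelled triple was -0.07 in member cells and -0.04 in other mesenchymal-like cells, although that label names the antagomiR. In member cells let-7 sites also stood at -0.06 with miR-25 mimic, so values of this size there do not decide a label. The doubt was raised by the larger values in Müller-like cells. These libraries are called labelled miR-124 and labelled triple here.

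Member cells are described first by the 8 genes that chose them, as CPM (UMIs summed over the cells of a group in 1 library and scaled to a common total). Values of the libraries follow 1 order throughout, control RNAs, let-7 antagomiR, miR-25 mimic, labelled miR-124, double combination and labelled triple. Tnfrsf18 stood at 235, 181, 377, 162, 258 and 122 CPM in member cells. In the other mesenchymal-like cells of the same libraries it stood at 1.7 to 6.99 CPM. Those cells had UMIs of at least 5 of 24 mesenchymal genes and at most 3 of 18 Müller glia genes, and numbered 7134. Matn4 stood at 75.6, 44.3, 95.6, 21.5, 39.1 and 11.1 CPM in members against 1.02 to 4.95, and Esm1 at 233, 352, 229, 291, 418 and 177 against 31.5 to 114. For each of the 8 genes, the lowest member library was above the highest library of other mesenchymal-like cells, as the rule makes likely. The spread among member libraries was unequal: Matn4 had a mean of 47.9 ± 32.2 CPM (SD, n = 6 libraries), with its lowest value in the library labelled triple, while Ptges, at 112 ± 20, varied little around its mean.

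Most members held only a few of the 8 transcripts. There were 234 members with 3 of the genes, 108 with 4, 43 with 5 and 28 with 6 to 8, and 814 kept cells fell just outside the rule with 2. Perp was detected in 81.8% of members, Scn3b in 59.3%, Esm1 in 52.3% and Tnfrsf18 in 50.6%. Ptges followed with 43.8%, Cyyr1 with 37.8%, Anxa8 with 26.6% and Matn4, although it names the cells, with 16.0%. Free RNA can give single UMIs in any droplet and was not told apart from expression. Müller-like cells had Perp in 10.8% of cells but Tnfrsf18 in 0.175% and Esm1 in 0.0828%, at a median depth of 3841 UMIs against 4722 in mesenchymal-like cells. Esm1 and Perp were also detected in 13.7% and 14.1% of other mesenchymal-like cells, the highest shares of the 8 in those cells.

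**Figure D1:**
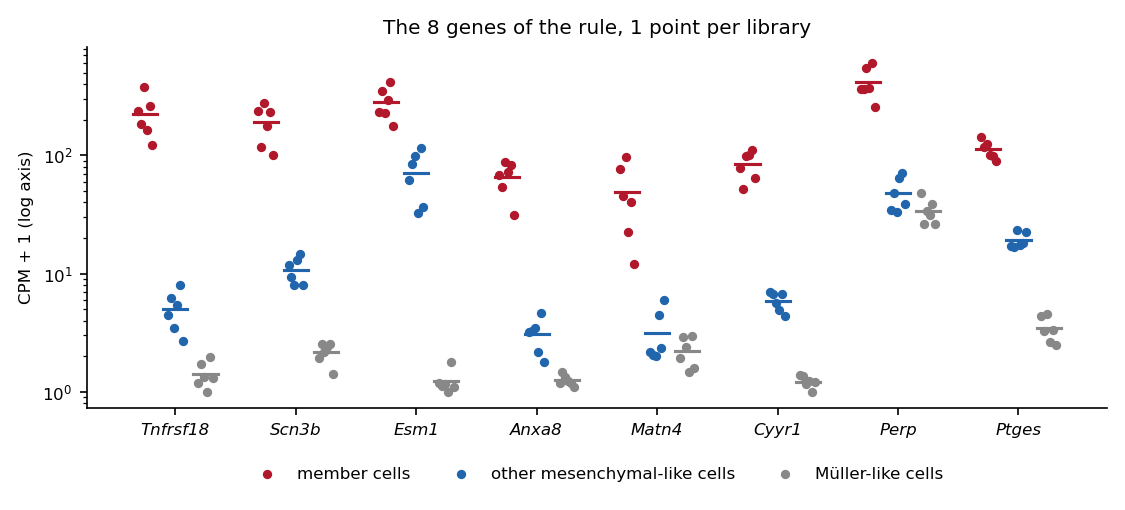
CPM + 1 on a log axis of the 8 genes of the rule in member cells, other mesenchymal-like cells and Müller-like cells, 1 point per library and a bar at the mean of each group. Tnfrsf18 lies between 122 to 377 CPM in members and between 1.7 to 6.99 CPM in other mesenchymal-like cells, while Esm1 reaches 114 CPM in the latter.

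Each gene was then left out of the rule in turn, and its level was read in cells with at least 3 of the other 7. Tnfrsf18 was detected in 39.6% of 338 such cells against 2.38% of the mesenchymal-like cells outside them, and its mean log2 ratio to those cells over the libraries was 4.02. Scn3b followed with 3.06, Perp with 2.70, Anxa8 with 2.42, Cyyr1 with 2.37, Matn4 with 2.32 and Ptges with 1.76, each higher in 6 of 6 libraries. Esm1 was the weakest of the set. It had a mean of 0.86, from -0.50 to 2.47, and was higher in 5 of 6 libraries. The genes and the cells were proposed together from these data, so these values are a description and support nothing further.

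By a gate of detected genes, the label of mesenchymal cells held for most members. Of the 413, 324 (78.5%) passed the mesenchymal gate, between 67.6% and 87.9% by library, while 7458 of all 23258 kept cells passed it. The rule picked 4.34% of mesenchymal-like cells (3.89 to 4.83), 0.0368% of Müller-like cells (0.0100 to 0.0941), 0.806% of microglia-like cells and 0.436% of contractile cells, those with 3 or more contractile genes, before the contractile exclusion. After thinning every cell to 2000 UMIs these shares were 1.45%, 0.00966%, 0.172% and 0.111%, in the same order. Sparc, the matricellular protein osteonectin, stood at 4857 ± 669 CPM in members against 4291 ± 654 in other mesenchymal-like cells, and Fn1 (fibronectin) at 933 ± 142 against 1057 ± 156. Müller-like cells, pooled over libraries, had Sparc at 3327 CPM and Fn1 at 138 CPM. The summed level of 28 mesenchymal core genes was 16367 to 21722 CPM in members, 17685 to 21985 in other mesenchymal-like cells and 7030 to 11680 in Müller-like cells. Twist2 alone of the 28 was at 0 UMIs in members. Gene by gene the list set members less apart from all other kept cells. Of its 22 measured genes, 1 was at least 1.5-fold higher in all 6 libraries, 2 were lower and 19 neither. Over all genes measured, 3.9% were higher and 6.15% lower, so these counts are near the shares of all genes. The median log2 ratio of the 22 was 0.42, beside -0.06 over all genes measured.

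Members outside the gate were of several kinds. There were 59 with few genes of both the mesenchymal and the Müller glia lists, with a median of 2995 UMIs, 27 with 4 or more Müller glia genes, and 5 with 4 or more microglia genes, of which 3 were in the library labelled triple. In that library 2 members are counted both for Müller glia genes and for microglia genes. The 14 microglia genes summed to 3043 CPM in members of that library and to 31.4 CPM in the library with the least. Their part in results of that library was not tested beyond the values given beside them. Of 15 endothelial genes, Cdh5, Tie1, Cldn5 and Robo4 had 0 UMIs in all members. The whole endothelial list summed to 122 to 216 CPM in members and 129 to 159 in other mesenchymal-like cells, most of it Eng (endoglin, which fibroblasts also make) at 103 ± 20.2 CPM in members, and none of its 3 measured genes was called. Of 9 T lymphocyte genes, 7 had 0 UMIs (Cd3d, Cd3e, Cd3g, Cd8a, Foxp3, Il2ra and Lck). Of 20 epithelial genes, 14 had 0 UMIs, among them Epcam, Cdh1, Krt5 and Krt14. The epithelial list nonetheless summed to 33.3 to 98.5 CPM in members against 9.56 to 14.3 in other mesenchymal-like cells, and of its 3 measured genes Krt7 and Dsp were called higher in members. Over all genes measured in that comparison, 2.37% were called higher.

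Against all other kept cells, members were high in Gpx3, Pltp, Vcan and Mdm2 and low in genes of glia. A gene was called where its log2 ratio of CPM + 5 passed 1.5-fold in the same direction in all 6 libraries. Of 8149 genes with at least 20 CPM in either group, 318 were higher (3.9%) and 501 lower (6.15%). Beside genes of the rule, the 20 highest included Gpx3 (a secreted glutathione peroxidase), Pltp (phospholipid transfer protein), Nme4 (a mitochondrial nucleoside diphosphate kinase), Plek2, Vcan (versican, a large matrix proteoglycan), Cgref1, Tmtc3, Prrg4, Cpz, Mdm2 (the ubiquitin ligase that degrades p53), Tbc1d2 and Dcxr. Gpx3 stood at 592 ± 197 CPM (SD, n = 6 libraries) in members against 67.7 ± 15.5 in other cells, and Dcxr, a dicarbonyl reductase, at 862 ± 112 against 196 ± 26.9. The 10 lowest were led by genes of Müller glia and astrocytes: Cp (ceruloplasmin), Crym, Car2, Tspan15, Chrdl1, Dapl1, Sbspon, Gfap, Chl1 and Mt2. Cp stood at 87.9 ± 44.2 CPM in members against 1392 ± 480.0, and Gfap at 7.77 ± 7.7 against 252 ± 248. Of 20 measured Müller glia genes, 14 were lower and none higher, with a median log2 ratio of -2.70, beside -0.06 over all genes measured.

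That comparison mixes cell types, because other kept cells are mostly Müller-like, so the members were set against the other mesenchymal-like cells. Of 7726 genes measured there, 183 (2.37%) were higher in all 6 libraries and 77 (0.997%) lower. Without the libraries labelled miR-124 and triple these counts were 350 and 163, with 4 libraries to agree in place of 6. The genes named above as high against all other cells were all called higher here too, Cgref1 with the lowest library at 0.83 and Vcan with 1.01 on the log2 scale. Of the 10 low ones none was called, and Cp had a mean log2 ratio of -0.13.

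Gpx3 stood at 461, 443, 869.5, 413, 805 and 563 CPM in members and at 104, 90.5, 109, 119.7, 184 and 142 CPM in other mesenchymal-like cells. The lowest member library was above the highest of the others, and the members of the miR-25 mimic and double combination libraries had the highest values. Nme4 stood at 258, 194, 229, 226, 211 and 144 CPM in members against 45.5 to 55.5, and Pltp at 126 to 203 against 25.5 to 34.6, again without overlap. Versican stood at 294, 266, 362, 319.5, 281 and 219 CPM in members against 74.2 to 129. Fosl1, which codes for the AP-1 subunit Fra-1, stood at 42.8, 33.7, 89.8, 25.1, 46.9 and 30.5 CPM against 3.3 to 6.65, a mean log2 ratio of 2.31, while the related Fos was lower in all 6 libraries. Wdr61, a subunit of the PAF1 and SKI complexes, stood at 350.0 ± 102 against 84.4 ± 8.05, and the lysosomal mannosidase gene Man2b1 at 78.6 ± 24.6 against 13.7 ± 3.54. Low-level genes of adhesion and membrane were among the highest by ratio. Plek2 stood at 33.2 ± 13.9 against 1.36 ± 0.524, Pvrl4 (nectin-4, known from epithelia) at 23.7 ± 18.3 against 0.761 ± 0.431, and Gjb5 (a connexin of epithelia) at 13.9 ± 4.66 against 1.08 ± 0.398. Their ratios depend on the pseudocount: with 1 CPM in place of 5, the mean log2 ratio of Plek2 was 3.79 in place of 2.51.

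The genes lowest in members against other mesenchymal-like cells were Penk, Plppr4, Igfbp5, Prss35, Rgs4, Il13ra2, Abi3bp, Agtr2, Hmcn1 and Fhl1. Igfbp5, a secreted binding protein of insulin-like growth factors, was the most abundant of them. It stood at 264, 820.1, 310.1, 319.5, 309 and 870.1 CPM in members and at 1653, 3012, 2491, 2119.7, 2197 and 2883 CPM in other mesenchymal-like cells. All 6 member values were below all 6 others, and the mean log2 ratio was -2.45. Penk, the precursor of enkephalins, stood at 0 to 33.3 CPM in members against 21.1 to 278, groups that overlap although each library's own ratio was below 1. Hmcn1 (hemicentin, a matrix protein) stood at 45 ± 17 against 162 ± 34.4, and Fhl1, a LIM-domain protein of muscle, at 90.3 ± 26.6 against 254 ± 36.8.

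Several genes that p53 switches on were higher in members. Against other mesenchymal-like cells, 5 of 18 measured targets were higher in all 6 libraries (Mdm2, Perp, Pmaip1, Fas and Ccng1), none was lower, and the median log2 ratio was 0.58, beside 2.37% of all genes called higher and a median of -0.03 over all genes measured. Perp chose the cells, so 4 of 17 remain without it. The summed level of the list was 11680 to 13799 CPM in members and 7848 to 8643 in other mesenchymal-like cells. Mdm2 stood at 936, 913, 1107, 923, 993 and 635 CPM in members and at 260.2, 246, 216, 242, 284 and 209.9 CPM in the others. The lowest member value, in the library labelled triple, was more than the highest of the others. Ccng1 (cyclin G1) stood at 1259, 1075, 1356, 1170.3, 1149 and 809 CPM against 527 to 664, and Fas, a death receptor of the TNF family, at 188, 200.3, 197, 251, 207 and 163 against 71.2 to 107. Pmaip1 (Noxa), a pro-apoptotic BH3-only protein, stood at 149 ± 41.8 CPM against 55.3 ± 12.8. Cdkn1a (p21), the cell cycle inhibitor, was abundant in both groups at 2569.6 ± 178 and 1787 ± 165 CPM. Its mean log2 ratio of 0.52, from 0.44 to 0.63, was above 0 in each library but did not reach 1.5-fold in all. Not every target was higher. Bbc3 (Puma) had a mean log2 ratio of -0.53, Aen of -0.35 and Plk2 of -0.14, each with libraries on either side of 0. Against all other kept cells 11 of 18 were higher, Cdkn1a and Bax among them, and none lower, beside 3.9% of all genes called higher. With Perp dropped from the rule, 230 cells had 3 or more of the other 7 genes, and Mdm2 had a mean log2 ratio of 1.97 in them.

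**Figure D2:**
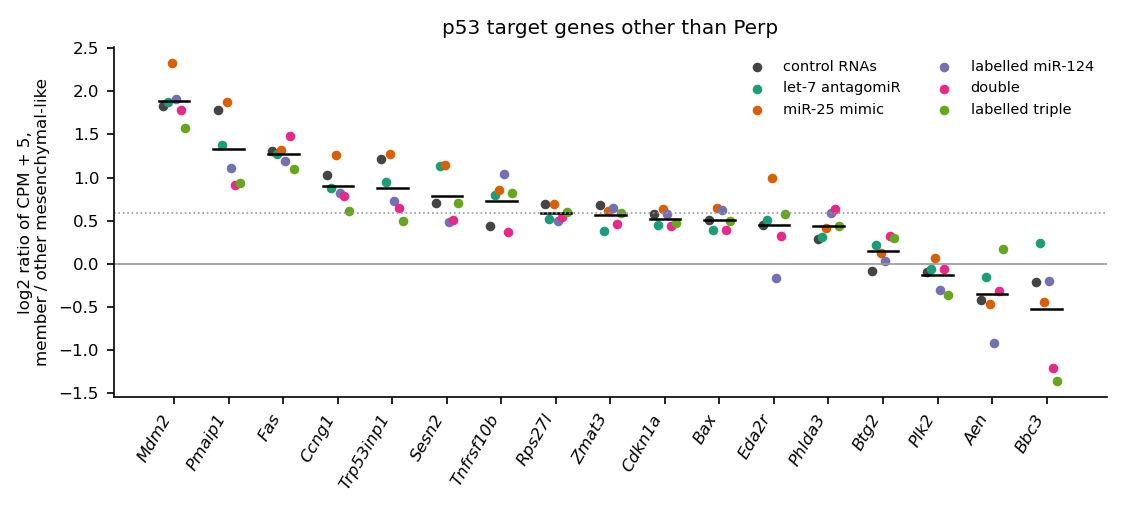
Log2 ratio of CPM + 5 of member cells to other mesenchymal-like cells for 17 p53 target genes other than Perp, 1 point per library and a bar at the mean, with a dotted line at 1.5-fold. Mdm2 is the highest with a mean of 1.88 and a range of 1.57 to 2.33, and Bbc3 the lowest with -0.53.

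Some genes of the contractile apparatus and of the serum response were lower. Of 15 measured genes driven by YAP or serum response factor, 7 were lower in all 6 libraries against other mesenchymal-like cells (Myl9, Acta2, Tpm4, Thbs1, Tpm1, Vcl and Amotl2) and none higher, with a median log2 ratio of -0.82, beside 0.997% of all genes called lower. The other 8 were not called. Acta2 (smooth muscle actin) was not used by the rule. It stood at 567, 1261, 1154, 2189.9, 981 and 1427 CPM in members and at 2582, 2583, 3030.5, 3303, 2672 and 2777 CPM in the others, without overlap. The rule leaves out cells with 3 or more contractile genes in both groups compared, so the reference is cut in the same way. Ctgf and Axl did not follow, with mean log2 ratios of -0.22 and 0.56. Of 10 measured genes of pericytes or smooth muscle, Myl9, Acta2 and Tagln were lower, 6 were not called, and Notch3, the receptor of mural cells, was higher, at 57.5 ± 15.3 CPM against 18.4 ± 2.53. Of the 4 measured contractile genes of the rule, Ppp1r14a was called higher and Cnn1 lower, which the rule in part shapes. Ppp1r14a, an inhibitor of myosin phosphatase, was detected in 15.7% of members against 4.67% of other mesenchymal-like cells, while Actg2 was detected in 9.44% against 18.2%.

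Matrix genes were mixed. Over all genes measured against other mesenchymal-like cells, 2.37% were called higher and 0.997% lower, with a median log2 ratio of -0.03. Of 17 measured collagens, Col8a2 and Col14a1 were lower in all 6 libraries and none was higher, with a median log2 ratio of -0.32. Col1a1 stood at 392, 647, 443, 671, 481 and 942 CPM in members and at 1064, 743, 737, 978, 589.6 and 1368 CPM in other mesenchymal-like cells, so that the groups overlap, although the ratio was below 1 in 6 of 6 libraries (-1.43 to -0.20 on the log2 scale). The other cells had to show mesenchymal core genes, a list that holds collagens, and members did not, which in part shapes these ratios. In the 324 members that passed the same gate, pooled Col1a1 was 618 CPM, against 972 in other mesenchymal-like cells. Of 14 measured genes of matrix remodelling, 2 were lower, among them the aggrecanase gene Adamts5, and none was higher. Fbln2 (fibulin-2) was the 1 gene higher among 20 measured of the mesenchymal core, at 373 ± 74.3 CPM against 170.4 ± 41.6. Of 19 measured proteoglycans, Vcan and Esm1 were higher and none was lower.

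In the TNF receptor, prostaglandin and annexin families few genes were called. Over all genes measured against other mesenchymal-like cells, 2.37% were called higher and 0.997% lower, with a median log2 ratio of -0.03. Of 12 measured TNF receptors and ligands, Tnfrsf18 and Fas were higher and none lower, with a median log2 ratio of 0.56. Their list, which holds Tnfrsf18 of the rule, summed to 1349.5 to 1778 CPM in members. In other mesenchymal-like cells it summed to 763 to 1130 CPM, without overlap. Tnfrsf11b (osteoprotegerin, a decoy receptor) had a mean log2 ratio of 0.77 without a call. The ligand of Tnfrsf18, Tnfsf18, had 0 UMIs in members. Of 11 measured prostaglandin genes only Ptges was called, and Ptgs2 (cyclooxygenase-2), which supplies its substrate, had a mean log2 ratio of -0.07. Of 8 measured annexins only Anxa8 was called, with Anxa5 at 0.37 and Anxa2 at -0.46. In the desmosome and PMP22 list, Dsp (desmoplakin) was higher with Perp, at 27.7 ± 9.52 CPM against 5.68 ± 1.72, and Emp1 was lower, out of 9 measured. Among 14 measured Wnt genes, the ligands Wnt4 and Wnt9a were higher and the receptor Fzd1 and the antagonist Sfrp1 lower. Of the cell cycle genes, Mki67, Aurkb, Bub1, Kif11 and Mcm5 were at 0 UMIs in members, and all 23 genes of the list summed to 69.3 to 140.7 CPM in members and 99.8 to 142.2 in other mesenchymal-like cells. Rrm2 of the same list went the other way, at 10.8 to 50.6 CPM in members against 3.06 to 7.34. None of the 3 measured genes of the list was called.

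The number of the 8 genes detected in a cell went with the levels of genes outside the rule. Mesenchymal-like cells were sorted by that number, from 4448 cells with none and 2058 with 1, over 628 with 2, which lie just outside the rule, to 186 with 3, 85 with 4, 31 with 5 and 22 with 6 to 8. Mdm2 stood at 188, 284, 437, 753, 883, 1208 and 1603 CPM in that order. The interval at 2 genes was 416 to 458 and at 3 genes 703 to 805, so the levels differed across the threshold beyond counting error. Ccng1 went from 556 to 1561 CPM between the first and the last class, Gpx3 from 74.6 to 906, Nme4 from 42.4 to 399 and Fosl1 from 2.28 to 101. Igfbp5 went the other way, from 2513 over 1484 at 2 genes to 35.8, and so did Acta2, from 3014 to 191. The mesenchymal genes Col1a1 and Col1a2 were also lowest in the last class. Col1a1 went from 1017 to 429 CPM, with 531 at 4 genes and 649 at 5, and Col1a2 from 1111 to 334 CPM. For Mdm2, Gpx3, Nme4, Igfbp5 and Acta2, cells with 2 genes lay between the classes on either side of them. Cdkn1a levelled off, with 2868 CPM at 4 genes and 2556 at 6 to 8. The classes differ in depth, with median UMIs of 4479.5 at none, 5340.5 at 3 and 8094 at 6 to 8, and in libraries, since none of the 22 cells of the last class came from the double combination or the library labelled triple and 10 came from the control. The part of depth and library in these levels was not tested.

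**Figure D3:**
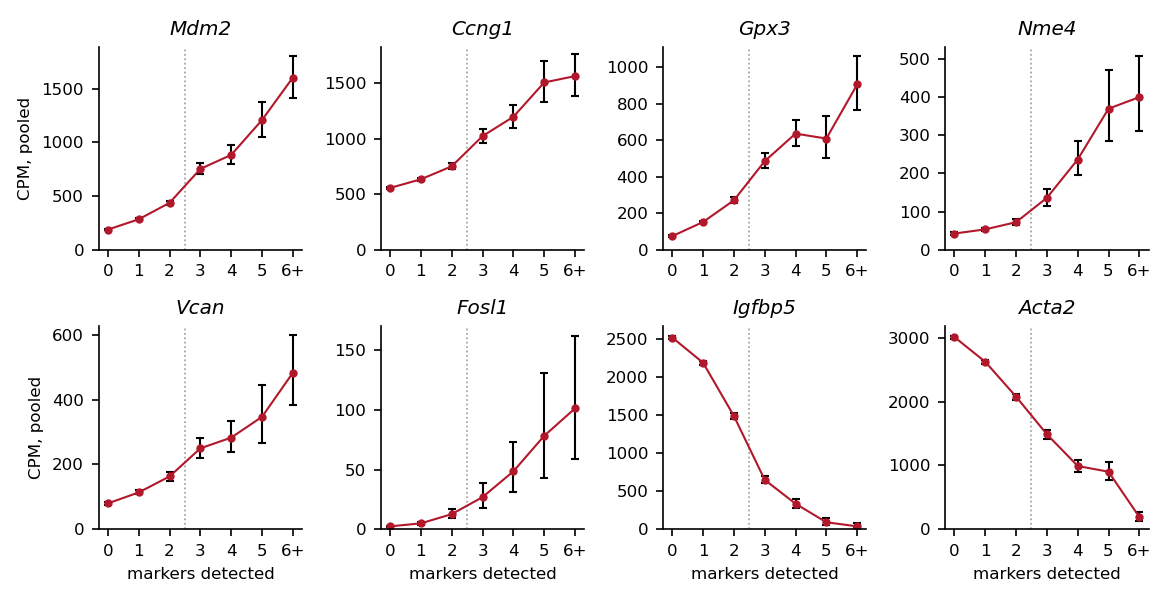
Pooled CPM of 8 genes in mesenchymal-like cells by the number of the rule's genes detected in the cell, with exact Poisson intervals and a dotted line at the threshold of the rule. Mdm2 goes from 188 to 1603 CPM and Igfbp5 from 2513 to 35.8 CPM.

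The 59 members with few genes of both lists had higher levels of several genes outside the rule than the 324 mesenchymal-like members. This split was made after the values were seen, and its low mesenchymal genes follow from how it was made. Counts were pooled over libraries. Mdm2 stood at 1413 (1246 to 1597) CPM in the 59 and at 900.0 (858 to 943) in the 324. Plek2 stood at 137 (89 to 203) against 21.1 (15.2 to 28.7), and Pvrl4 at 159 (107 to 229) against 11.9 (7.52 to 17.8). The epithelial keratins Krt18 and Krt7 stood at 55 and 49.5 CPM in the 59, against 8.25 and 10.8 in the 324, but Epcam, Cdh1, Krt5 and Krt14 were at 0 in all members. Every member holds at least 3 genes of the rule, which sets a higher CPM for those genes in cells with fewer UMIs, so their levels are a description only. Tnfrsf18 stood at 566 (462 to 687) CPM against 206 (186 to 227), Matn4 at 280.4 (209 to 369) against 36.1 (28.1 to 45.6), and Esm1 at 187 (129 to 261) against 289 (266 to 314). The 59 cells had a median of 2995 UMIs against 5388 in the 324, and 19 were in the miR-25 mimic library, 17 in the double combination, 15 in the control, 6 in the library labelled miR-124, 2 with let-7 antagomiR and none in the library labelled triple. The part of depth and library in the levels outside the rule was not tested. The 27 members with 4 or more Müller glia genes had Apoe, an apolipoprotein made by Müller glia and by microglia, at 2335 CPM, between the 103 CPM of mesenchymal-like members and the 6114 CPM of Müller-like cells, and Col1a1 at 560.0 CPM, near the 618 of mesenchymal-like members and above the 6.97 of Müller-like cells. The microglia genes Lyz2 and C1qa stood at 927 and 249.8 CPM in these 27, of which 2 are also counted as microglia-like, against 14.9 and 1.03 in mesenchymal-like members. The 27 had a median of 8113 UMIs, against 5388 in mesenchymal-like members and 3841 in Müller-like cells. The part of depth and of doublets in their levels was not tested.

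**Figure D4:**
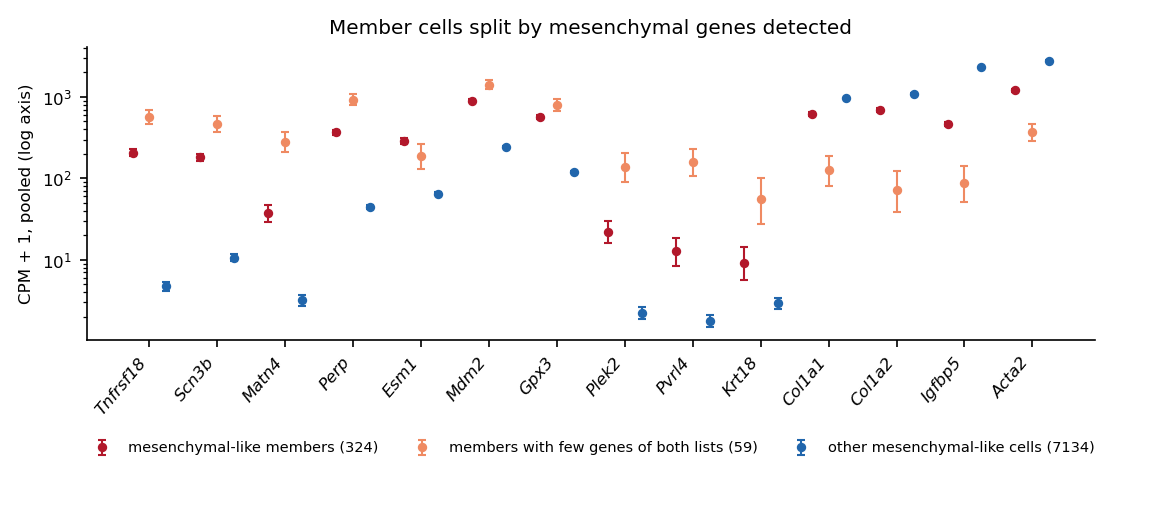
Pooled CPM + 1 on a log axis, with exact Poisson intervals, of 14 genes in mesenchymal-like members, in members with few genes of both lists and in other mesenchymal-like cells. Mdm2 is at 1413 CPM in the members with few genes of both lists and at 900.0 in mesenchymal-like members, and Pvrl4 at 159 and 11.9.

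Member cells were a small share of every library. They made up 112 of 4521 kept cells in the control, 2.48% (2.04 to 2.97), and 61 of 3128 with let-7 antagomiR, 1.95% (1.49 to 2.5). They made up 71 of 5168 with miR-25 mimic, 1.37% (1.07 to 1.73), and 58 of 3598 in the library labelled miR-124, 1.61% (1.23 to 2.08). The double combination had 69 of 2759, 2.5% (1.95 to 3.15), and the library labelled triple 42 of 4084, 1.03% (0.742 to 1.39). The control and the double combination were the highest and the library labelled triple the lowest, with intervals that do not meet. The share of mesenchymal-like cells, members included, itself ran from 23.0% in the library labelled triple to 50.3% in the control. As a share of mesenchymal-like cells and members, the order was another one: 4.92% (4.07 to 5.89) in the control, 6.44% (4.96 to 8.20) with let-7 antagomiR, 5.84% (4.59 to 7.31) with miR-25 mimic, 4.35% (3.32 to 5.58) labelled miR-124, 8.24% (6.47 to 10.3) in the double combination and 4.48% (3.25 to 6) labelled triple. By that measure the control was below 3 of the other 5 libraries, and of those only the double combination had an interval wholly above that of the control.

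Depth bears on these shares, because a deeper cell shows more of the 8 genes. Median UMIs of member cells ran from 3271 in the double combination to 7634 in the library labelled triple. With every cell thinned to 2000 UMIs, shares of kept cells were 0.948%, 0.426%, 0.703%, 0.611%, 1.11% and 0.225%, with 75 to 337 shallower cells left out per library. The double combination and the control were again the highest and the library labelled triple the lowest, but let-7 antagomiR moved from the third place to the fifth. These thinned shares rest on 13 cells with let-7 antagomiR (0.227 to 0.727) and 9 labelled triple (0.103 to 0.426). The let-7 interval met those of miR-25 mimic (0.487 to 0.981) and labelled miR-124 (0.374 to 0.942). Its place relative to those 2 libraries thus lies within counting error. Of mesenchymal-like cells, thinned shares were 1.85%, 1.41%, 2.94%, 1.55%, 3.62% and 0.973%, so that the library labelled triple was lowest by this measure too. Median mitochondrial shares of member cells were 2.46% to 3.68%. Culture, treatment and library cannot be told apart in these shares.

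**Figure D5:**
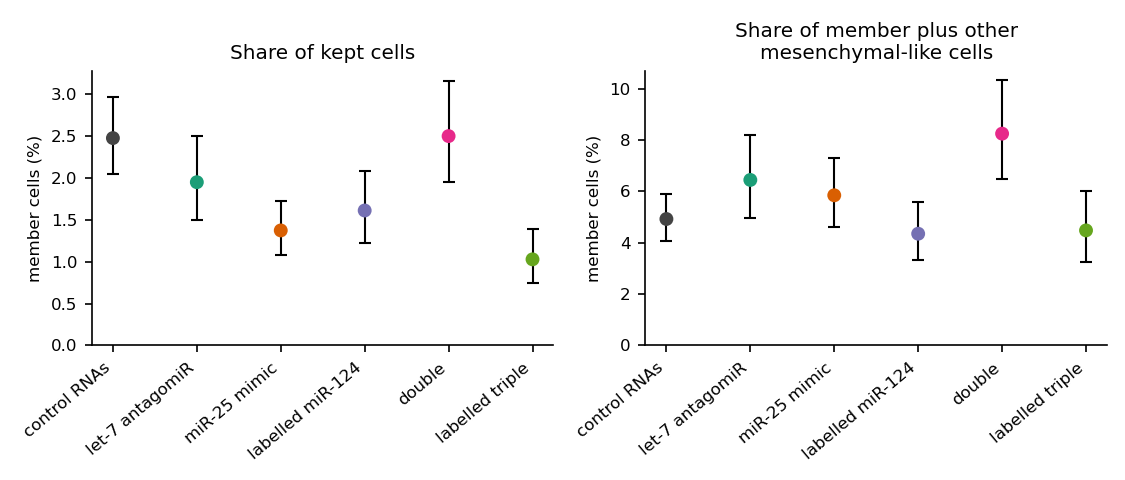
Share of member cells among kept cells (left) and among mesenchymal-like cells and members (right) in the 6 libraries, with exact Clopper-Pearson intervals. The left panel runs from 1.03% labelled triple to 2.5% in the double combination, and the right panel from 4.35% labelled miR-124 to 8.24% in the double combination.

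Treatment effects on gene levels were read within member cells, 2 contrasts for each RNA that share no library. The antagomiR was set against control RNAs, and the double combination against miR-25 mimic alone, to read let-7. The miR-25 mimic was set against control RNAs, and the double combination against the antagomiR alone, to read miR-25. The library labelled miR-124 was set against control RNAs, and that labelled triple against the double combination, to read miR-124. Contrasts of let-7 and of miR-25 draw on the same 4 libraries. Members summed to 255890 to 700750 UMIs per library, so a gene at 20 CPM rests on few UMIs.

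The seed of a miRNA, its bases 2 to 8, pairs with sites in the 3′ UTRs of its targets. The sequences are shown because the site counts below rest on their seeds, given in capitals, and come from RefSeq on GRCm38.p6. The arms in the transfected RNAs are not given in the labels, and the usual ones are assumed; miR-124 is named only.
let-7a-5p: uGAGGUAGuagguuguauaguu
let-7i-5p: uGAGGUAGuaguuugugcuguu
miR-25-3p: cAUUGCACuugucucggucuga
miR-92a-3p: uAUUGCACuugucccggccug
The let-7 members share 1 seed, and miR-92a-3p shares that of miR-25-3p. The 7-base matches searched on the transcript strand were CTACCTC and TACCTCA for let-7 and GTGCAAT and TGCAATA for miR-25, of which each pair overlaps in an 8-base match.

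In member cells, genes with a miR-25 site were lower than genes without one by small amounts. Among measured genes with an annotated 3′ UTR, 1139 had a miR-25 site and 6283 had none. The difference of their median log2 ratios was -0.05 where the mimic alone was compared with control RNAs and -0.07 where the double combination was compared with its antagomiR. In other mesenchymal-like cells the same differences were -0.04 and -0.02, and in Müller-like cells -0.11 and -0.13. For the 1257 genes with a let-7 site, the differences in members were -0.02 in the first let-7 contrast and 0.03 in the second, which have unlike signs. In Müller-like cells they were 0.03 and 0.03. In members, genes with a let-7 site stood at -0.06 in the first miR-25 contrast, so values of this size also occurred for a site that the added RNA does not match.

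Few genes differed in member cells in both contrasts of an RNA. Of 7549 genes with at least 20 CPM in 1 or more libraries, 19 (0.252%) were at least 2-fold higher and 18 (0.238%) at least 2-fold lower in both let-7 contrasts. For miR-25 the counts were 17 (0.225%) and 35 (0.464%), and for miR-124 54 (0.715%) and 41 (0.543%). Single contrasts passed 2-fold in either direction for 147 to 641 genes each, against 3 to 42 in the larger set of other mesenchymal-like cells. Of the 10 highest and 10 lowest genes of each RNA, the exact intervals of both ratios left out 1 for 3 and 3 genes of let-7, 3 and 2 of miR-25, and 8 and 5 of miR-124. Most of the named genes thus rest on too few UMIs to show a difference between the libraries. The named genes were picked as the most extreme by the same counts, which favours intervals that leave out 1. Over all 7213 genes open to ranking, both intervals lay above or below 1 for 43 and 28 genes of let-7. For miR-25 these counts were 39 and 31, and for miR-124 100 and 35.

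For miR-25 the gene lowest by both contrasts was Scand1, which codes for a SCAN-domain protein. It stood at 62.8, 109.6, 5.8, 14.4, 11.7 and 5.54 CPM in member cells. The 4 libraries other than the control and let-7 antagomiR were all below those 2, including the library labelled miR-124, whose label names no miR-25. The ratios were 0.0923-fold (0.0108 to 0.354) and 0.107-fold (0.0214 to 0.33). Other mesenchymal-like cells had 24.8, 80.6, 12, 12.9, 13.6 and 5.1 CPM, in the same direction. No miR-25 site was found in its annotated 3′ UTR. The other lowest gene with both intervals below 1 was Zfx, at 55.7, 48.5, 20.3, 39.5, 15.6 and 44.3 CPM, with no such difference in other mesenchymal-like cells (log2 ratios of 0.07 and -0.30). The highest with both intervals above 1 were Rab42, Serpinb1a and Psph, an enzyme of serine synthesis, which stood at 18.6, 8.43, 52.2, 32.3, 46.9 and 16.6 CPM.

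For miR-124 the highest gene by both contrasts was Fxyd6, a regulator of the sodium pump. It stood at 1.43, 65.4, 8.7, 57.4, 7.82 and 85.9 CPM in members. The ratios of the 2 contrasts were 40.3-fold (6.25 to 1688) and 11-fold (2.8 to 94.8), with wide intervals, and log2 ratios in other mesenchymal-like cells were 2.55 and 1.18. Its level with let-7 antagomiR, whose label names no miR-124, was above that of the library labelled miR-124. Both miR-124 contrasts rest on the 2 libraries whose site values in Müller-like cells do not match their labels, and cannot be read without them. Among the other highest genes were Fdps and Sqle, enzymes of cholesterol synthesis. Fdps (farnesyl diphosphate synthase) stood at 21.4, 109.6, 66.7, 115, 58.6 and 230.0 CPM and Sqle (squalene epoxidase) at 31.4, 99.1, 55.1, 93.3, 35.2 and 166 CPM, so that the libraries labelled miR-124 and triple and let-7 antagomiR were the 3 highest for both. Itgbl1 stood at 27.1, 52.7, 29, 93.3, 23.4 and 85.9 CPM and had log2 ratios of 1.54 and 1.59 in other mesenchymal-like cells. Lyz2 and C1qa, genes of macrophages, were named too, at 1316 and 249 CPM in the library labelled triple, where 3 of 42 members were microglia-like. In mesenchymal-like members alone the second log2 ratio of Lyz2 was 0.99 and that of C1qa -1.01.

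Among the genes lowest for miR-124, Serpina3n, a secreted serine protease inhibitor, stood at 79.9, 78, 92.7, 0, 89.9 and 5.54 CPM in members. In the double combination 73.9% of its UMIs came from 1 cell, and in mesenchymal-like members the second log2 ratio was -0.92. Hmga2, a chromatin protein, stood at 58.5, 23.2, 34.8, 14.4, 86 and 16.6 CPM, and Rrm2, a subunit of ribonucleotide reductase, at 45.7, 50.6, 29, 10.8, 39.1 and 11.1 CPM, with both intervals below 1 for each. Matn4 was named as well and is a gene of the rule. Its ratios were 0.285-fold (0.1 to 0.662) and 0.284-fold (0.0649 to 0.983), and in mesenchymal-like members its log2 ratios were -0.86 and -0.18, smaller than over all members.

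For let-7 the highest genes were Aqp4, Npvf and H19. Aqp4, a water channel of Müller glia, stood at 1.43, 40.1, 2.9, 0, 43 and 11.1 CPM in members. There were 9 members with 4 or more Müller glia genes with let-7 antagomiR, 3 each in the control and the double combination and 4 with miR-25 mimic. In mesenchymal-like members alone the log2 ratios of Aqp4 were 1.67 and 2.34. Npvf, which codes for RFamide neuropeptides, stood at 0, 59, 0, 0, 19.5 and 0 CPM, and was detected in 6 of 61 members with let-7 antagomiR and 5 of 69 in the double combination. The imprinted RNA H19 stood at 72.8, 485, 69.6, 187, 266 and 346 CPM, with ratios of 6.66-fold (4.9 to 9.21) and 3.82-fold (2.37 to 6.36). It was not higher in other mesenchymal-like cells, where its log2 ratios were -0.91 and -0.17. In the double combination 66.2% of its UMIs in members came from 1 cell. The lowest with both intervals below 1 were Thumpd1, Otud4 and Slc5a3, a myo-inositol transporter at 40, 14.8, 75.4, 53.9, 23.4 and 30.5 CPM.

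The lists that set members apart were read across treatments as well. The median log2 ratio of 18 measured p53 targets was 0.02 and -0.12 for let-7, 0.11 and -0.07 for miR-25, and -0.10 and -0.17 for miR-124, beside medians over all genes of -0.04 to 0.06. The 8 genes of the rule had medians of -0.34 and -0.17 for let-7, 0.33 and 0.55 for miR-25, and -0.19 and -1.18 for miR-124. Levels of the rule's genes are shaped by depth through the rule, and the library labelled triple had the deepest members, so the last value is given with that median of 7634 UMIs against 3271 in the double combination, and its cause was not tested.

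Since Fosl1 codes for an AP-1 subunit, promoters were searched for the AP-1 motif TGANTCA on both strands, over 250 bases before and 50 after each start in the RefSeq table. A gene was counted when any of its promoters held the motif. It was found for 8.97% of all 27025 genes of the table and for 5.70% of the 5981 measured genes with a promoter there. Of genes higher in members against other mesenchymal-like cells, 10 of 151 (6.62%) had it, of the lower ones 3 of 51 (5.88%), and of the genes of the rule 0 of 6. These shares are close to that of the measured genes, and a match or its absence in this window says nothing on binding.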

How the data were processed

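The authors deposited 1 matrix of raw UMI counts per gene and cell for each of the 6 libraries; per the submitters' processing notes, Cell Ranger 2, Seurat 2 and the mm10 genome were used, and filters behind the matrices were not stated. The matrix of the double combination ended early, and only complete barcodes were used. No columns of other samples were present. UMIs of a group of cells were summed per library and scaled to CPM over genes, and log2 ratios were taken of CPM + 5, over genes with at least 20 CPM. No test between groups of cells or treatments was made, because members were chosen by their transcripts and each treatment has 1 library. A gene was called between cell groups where it passed 1.5-fold in all 6 libraries, and between treatments where it passed 2-fold in both contrasts.

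Mesenchymal-like cells had at least 5 of 24 mesenchymal core genes, at most 3 of 18 Müller glia genes, fewer than 3 of the 5 contractile genes and fewer than 4 of 14 microglia genes. Müller-like cells had at least 4 Müller glia genes and at most 4 mesenchymal genes, with the same limits on the others. Genes detected in over 50% of kept cells stayed out of these gates. No doublet caller was run, and doublets were treated by leaving out the 4% of cells with the most UMIs in each library as an alternative. Genes named are the 20 highest and 10 lowest by the library nearest to 0 in each comparison of cell groups, the 10 highest and 10 lowest of each RNA by the contrast nearer to 0, the genes of the rule, and from each of 36 lists the 2 highest and 2 lowest or those called. Mitochondrial, ribosomal protein, sex-linked, haemoglobin, Gm and Rik genes stayed out of rankings. Some genes that this choice names are not reported here. The members and the lists were chosen with earlier results of these data known. The comparison with other mesenchymal-like cells, the mesenchymal gate, the split of members and the motif search were chosen after seeing the data.

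Sites were searched in 3′ UTRs of GENCODE vM21 (GRCm38), of 20998 genes. Depth was 11804176 to 23124374 UMIs per library, and exact 95% Clopper-Pearson, Poisson and conditional ratio intervals cover counting error only. The 2-fold calls between treatments were tested on simulated data, to check the computation. Python 3.11.15, numpy 2.4.6, scipy 1.17.1, pandas 2.3.3 and matplotlib 3.10.9 were used.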

Additional observations from a re-analysis of the deposited data

Results flagged for a closer look

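Of 60 genes named in the treatment contrasts, 9 had log2 ratios of opposite signs in member cells and in other mesenchymal-like cells in both contrasts. For 6 of them an exact interval of a ratio in members held 1, and 1 was a gene of the rule, whose detection decides which cells are members. The other 2 are given here. The difference between the cell groups was not tested, since each treatment has 1 library. H19 had log2 ratios of 2.66 in members and -0.91 in other mesenchymal-like cells for let-7 antagomiR over control RNAs, and of 1.86 and -0.17 for the double combination over miR-25 mimic. In the double combination 66.2% of its UMIs in members came from 1 cell, which the exact interval does not take into account. The second H19 contrast thus rests largely on that cell. Slc5a3 had -1.19 in members and 0.13 in other mesenchymal-like cells in the first of these contrasts, and -1.50 and 0.15 in the second.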

How the results depend on the processing

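Shares of kept cells followed the threshold of the rule. With at least 2 of 8 genes they were 6.64%, 6.71%, 3.44%, 5.47%, 6.71% and 3.84% in the order of the libraries, and with at least 4 of 8 they were 1.39%, 0.767%, 0.658%, 0.584%, 0.797% and 0.367%. Thinned to 2000 UMIs they were 0.948%, 0.426%, 0.703%, 0.611%, 1.11% and 0.225%. With at most 5% mitochondrial UMIs they were 3.41%, 3.5%, 2.51%, 2.68%, 4.49% and 2.04%, beside median mitochondrial shares of 5.85% to 7.32% in Müller-like cells and 2.46% to 3.68% in members. With only members that pass the mesenchymal gate they were 0.929% with miR-25 mimic and 1.78% in the double combination, and moved less in the others. A minimum of 1000 genes, no contractile exclusion and no cells of the highest 4% of UMIs kept each share within its interval.

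Against all other cells, 332 genes were lower with a filter of 50 CPM, and 492 were higher without the libraries labelled miR-124 and triple; against other mesenchymal-like cells 350 were higher and 163 lower without them. Fewer libraries must then agree. With at least 4 of 8 genes, 6 of the p53 targets other than Perp were higher against all other cells, in place of 10.

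Counts of genes past 2-fold in both contrasts moved most, given here as higher and lower for let-7, miR-25 and miR-124 in turn. They were 49, 64, 46, 71, 105 and 95 with a pseudocount of 1 CPM, and 5, 4, 2, 9, 26 and 12 with a filter of 50 CPM. They were 43, 50, 35, 67, 97 and 78 with no filter beyond 1 UMI, and 157, 193, 113, 296, 239 and 294 with at least 4 of 8 genes, which leaves 179 cells. With members that pass the mesenchymal gate they were 38 and 37 for let-7, 30 and 59 for miR-25, and 63 lower for miR-124. Without the highest 4% of UMIs 35 were lower for let-7. With 8-mer sites only, the let-7 difference of the second contrast was 0.126 and the miR-25 differences were -0.141 and -0.0485. The cause of these shifts beyond what each setting leaves out was not tested. Median-of-ratios scaling moved the median of a contrast by under 0.1 on the log2 scale. No value changed its sign under any of these settings. No paired analysis was possible because there is 1 library per treatment, and for the same reason no replicate could be left out.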

Other observations

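Xist, the RNA of the inactive X chromosome, stood at 19.98, 27.4, 89.8, 14.4, 74.3 and 94.2 CPM in member cells of the libraries in their usual order, against 59.97 to 178 CPM in other mesenchymal-like cells. In the control, let-7 antagomiR and labelled miR-124 libraries it was below the lowest of the other mesenchymal-like groups. The Y-linked Ddx3y stood at 87.0 ± 18.7 CPM in members (SD, n = 6 libraries) and at 88.0 ± 5.51 CPM in other mesenchymal-like cells. The number and sex of the mice behind each culture were not stated. Fosl1 and Fos, both genes of AP-1 subunits, went opposite ways in members against other mesenchymal-like cells, with mean log2 ratios of 2.31 and -0.99 and the same sign in 6 of 6 libraries each.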
